A study of Mus musculus with 12 samples.

Results

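The genes described here are 40 mRNA that belong to the ATF4 program or encode cytosolic aminoacyl-tRNA synthetases, out of 11022 mRNA in the deposited table. They were taken by gene symbol, and all 40 symbols listed had a row. They comprise 7 transcription factors and regulators of the integrated stress response, 3 stress effectors, 10 enzymes that make or interconvert amino acids, and 20 synthetases. The cells were cytotoxic T lymphocytes (CTL), differentiated CD8 T cells grown from LCMV-P14 TCR transgenic mice, whose T cell receptor (TCR) recognises the viral peptide gp33-41. All 12 cultures were primed for 48 h, expanded for 5 days and kept in 20 ng/mL IL-2, and there were 3 cultures in each of 4 groups. Unstimulated CTL stayed in IL-2, and TCR CTL received 100 ng/mL gp33-41 peptide for 4 h. TCR+PI3Kdi CTL received the peptide with 10 µM IC87114, which blocks the p110δ isoform of the lipid kinase PI3K, and TCR+MEKi CTL received it with 2 µM PD184252, an inhibitor of the kinases that activate ERK1/2. Each inhibitor was used at 1 dose and 1 time, and inhibitor without peptide was not analysed here.

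ATF4 is a basic leucine zipper transcription factor at the centre of the integrated stress response. When kinases such as GCN2 or PERK phosphorylate the initiation factor eIF2α, general protein synthesis slows while ATF4 mRNA is translated more efficiently, so ATF4 protein is set to a large extent after transcription and is not read by an mRNA measurement. ATF4 pairs with C/EBP family proteins and raises genes for amino acid synthesis and uptake, for many of the enzymes that charge tRNA with amino acids, and for factors such as CHOP (Ddit3) and TRIB3 that feed back on the response. In lymphocytes that are about to grow, mTORC1 and MYC activity are also known to raise many of these genes. Aminoacyl-tRNA synthetases join amino acids to their tRNA and are needed by every cell that makes protein.

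Values are FPKM, a read count divided by exon length and library size, scaled between samples by the authors with TMM. They are given culture by culture or as the mean ± SD of a group (n = 3). Differences are on the scale of log2(FPKM + 0.1), with the SE of the fitted difference. Tests used limma with Benjamini-Hochberg adjustment over all 11022 mRNA. An mRNA was called when its adjusted p was under 0.05 and it changed more than 2-fold, and it was counted as past the test when its adjusted p was under 0.05 at any size of change. The estimated depth ran from 7820000 to 13420000 reads per culture, and none of the 40 mRNA was at 0 in any culture. All 8 CTL markers had a row (Cd8a, Cd8b1, Cd3d, Cd3e, Cd3g, Cd2, Gzmb and Prf1), while the B cell and erythroid markers had none. Of the other markers, Cd4 was at 0.44 to 0.99 FPKM in Unstimulated, 2.54 to 2.87 FPKM in TCR, 1.96 to 3.65 FPKM in TCR+PI3Kdi and 0.28 to 0.66 FPKM in TCR+MEKi CTL. The NK cell marker Klrb1c was at 4.58 to 6.23, 1.63 to 1.88, 2.03 to 2.43 and 1.31 to 1.93 FPKM in the same order, while 1 of 6 macrophage and dendritic cell markers (Itgax, up to 0.75 FPKM) and 1 of 2 fibroblast markers (Col1a1, up to 0.43 FPKM) had a row. The part of these cells in the results was not tested. The mRNA of Egr1, a gene driven by ERK, was 87.5 ± 10.5 FPKM in TCR CTL and 4.47 ± 0.922 FPKM in TCR+MEKi CTL, so the MEK inhibitor group differed in the way its label implies. These were bulk cultures, in which fewer cells of a type and less RNA per cell cannot be told apart.

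Many ATF4 targets carry a C/EBP-ATF response element, whose core TGATGNAA was searched on both strands of the RefSeq promoters (GRCm38.p6, from 250 bases before to 50 bases after the start site). A promoter was given for 31 of the 40 genes. The core was present for 11 of these 31 genes (35.5%), compared with 225 of 7970 genes of the table that had a promoter (2.8%) and 3.97% of all RefSeq promoters. The genes were listed as ATF4 targets or synthetases to begin with, so this share is a description of the list. By role, the core was found for 5 of 12 synthetases, 3 of 9 amino acid enzymes, 1 of 3 stress effectors and 2 of 7 transcription factors and regulators. The E-box CACGTG, a site for MYC and related proteins, was found for 6 of 31 genes (19.4%) against 972 of 7970 (12.2%), and no match of it overlapped a TGATGNAA match. The windows shown here are 6 in which the core lies upstream of the start site, from the stress regulator Nupr1, the effector Chac1, the enzymes Asns, Got1 and Pycr1, and the synthetase Aars, with the core in capitals on the strand of the gene.
Chac1, chr2:119351023-119351082, + strand: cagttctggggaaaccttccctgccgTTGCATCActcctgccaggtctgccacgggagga
Nupr1, chr7:126625547-126625606, - strand: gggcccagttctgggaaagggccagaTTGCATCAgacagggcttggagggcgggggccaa
Asns, chr6:7693210-7693258, - strand: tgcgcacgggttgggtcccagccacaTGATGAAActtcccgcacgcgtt
Got1, chr19:43524674-43524733, - strand: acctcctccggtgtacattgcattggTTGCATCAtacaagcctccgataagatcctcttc
Pycr1, chr11:120643818-120643877, - strand: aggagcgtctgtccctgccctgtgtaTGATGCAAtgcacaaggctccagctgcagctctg
Aars, chr8:111033704-111033763, + strand: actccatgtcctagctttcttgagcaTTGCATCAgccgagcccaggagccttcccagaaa
In Chac1, Nupr1, Got1 and Aars the core reads TTGCATCA, its reverse complement, and in Pycr1 and Asns it reads forward. The 11 genes with the core had a median difference of 1.01 between TCR and Unstimulated CTL (0.77 to 2.95), and the 20 genes with a promoter but no core had a median of 0.78 (-1.14 to 2.36). Both ranges overlap widely, and the absence of these letters from a short window says nothing about ATF4 binding elsewhere.

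The comparison of TCR with Unstimulated CTL asked what 4 h of antigen receptor stimulation does to these mRNA. Most of them rose. Of the 40, 15 were called higher and 1 was called lower, where 8.87% of all mRNA were called higher and 11.1% were called lower. At any size of change 35 were past the test as higher and 3 as lower, against 33.6% and 34.9% of all mRNA. The median difference over the 40 was 0.85, and over all mRNA it was -0.01. The 5 largest differences were those of Cth, Chac1, Nupr1, Bcat1 and Gpt2, whose means in Unstimulated CTL lay between 0.26 and 7.23 FPKM.

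**Figure D1:**
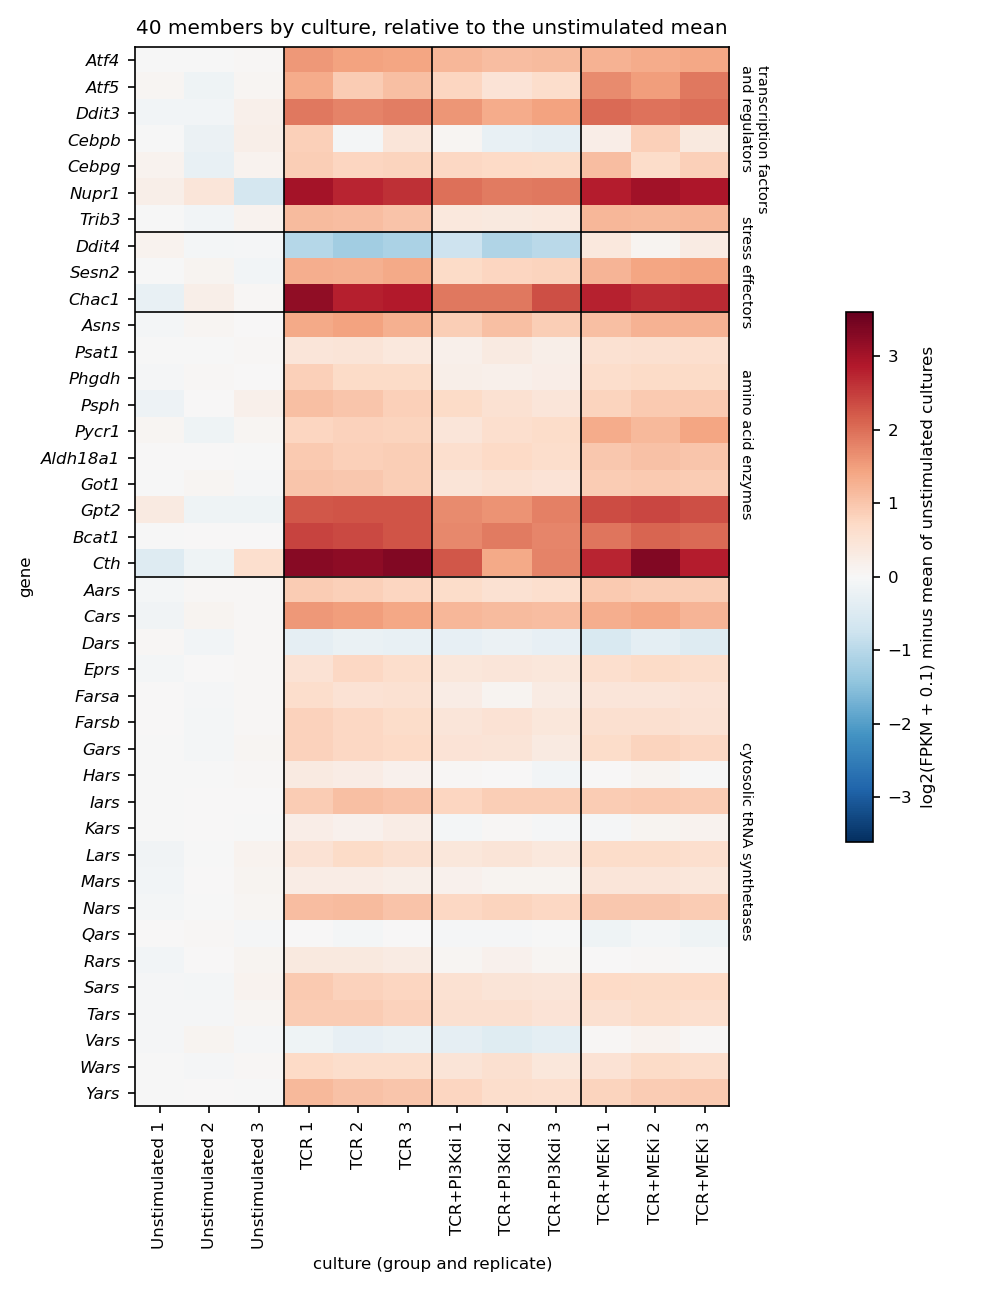
Heat map of log2(FPKM + 0.1) minus the mean of the 3 unstimulated cultures, for the 40 mRNA (rows, grouped by role) in 12 cultures (columns). Red is higher and blue is lower than in Unstimulated CTL. Ddit4 is the member that was lower in TCR CTL by more than 2-fold, with a difference of -1.14. In TCR+MEKi CTL its difference from Unstimulated CTL was 0.26.

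Among the transcription factors and regulators, 5 of 7 were called higher, against 8.87% of all mRNA. Atf4 itself (chr15:80255184-80257541, GRCm38) was at 173, 174 and 183 FPKM in Unstimulated CTL and at 523, 479 and 471 FPKM in TCR CTL, so it was abundant before stimulation and the groups did not overlap. The difference was 1.47 (SE 0.056, limma adjusted p = 7.38e-12), and the ratio of means was 2.78. Ddit3 (chr10:127290774-127296288), which encodes the stress factor CHOP, went from 14.8, 14.8 and 18.0 FPKM to 59.2, 54.4 and 56.7 FPKM, a difference of 1.84 (SE 0.079). Every TCR culture was thus far above every unstimulated one for both genes.

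Nupr1 (chr7:126623249-126630861), a small stress-induced chromatin protein, had the widest change of the group. It was at 6.4, 7.51 and 3.49 FPKM in Unstimulated CTL and at 44.9, 37.5 and 34.9 FPKM in TCR CTL, with a difference of 2.79 (SE 0.193, limma adjusted p = 6.73e-09). The third unstimulated culture was the lowest, and the groups were well apart. Trib3 (chr2:152337422-152344032), a pseudokinase that restrains ATF4 and AKT signalling, rose from 17.9, 16.7 and 19.6 FPKM to 39.5, 39.0 and 37.1 FPKM, a difference of 1.09 (SE 0.061). Atf5 (chr7:44812256-44816658), a close relative of ATF4, rose from 7.59 ± 0.659 FPKM to 16.6 ± 2.63 FPKM, a difference of 1.11 (SE 0.12).

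The partners of ATF4 moved less. Cebpg, which encodes a C/EBP protein that dimerises with ATF4, rose by less than 2-fold, from 6.91 ± 1.06 to 12.2 ± 0.516 FPKM (difference 0.82, SE 0.117). Cebpb was at 7.28, 6.38 and 8.51 FPKM in Unstimulated CTL and at 13.4, 7.03 and 10.0 FPKM in TCR CTL. These groups overlapped, and the difference of 0.42 (SE 0.206) did not pass the test (limma adjusted p = 0.0874). Part of Cebpb (15.2% of its 100-base stretches) lies in sequence shared with Tmem189 on the other strand.

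The 3 stress effectors did not move together. Chac1 (chr2:119351229-119354381), which degrades glutathione, was at 2.10, 2.99 and 2.64 FPKM in Unstimulated CTL and at 24.0, 18.4 and 19.1 FPKM in TCR CTL, a difference of 2.95 (SE 0.14, limma adjusted p = 9.29e-11). Sesn2 (chr4:132492032-132510501), a leucine sensor that restrains mTORC1, rose from 17.5, 19.0 and 16.7 FPKM to 43.7, 43.1 and 45.6 FPKM, a difference of 1.31 (SE 0.07). Ddit4 (chr10:59949669-59951834) encodes REDD1, another inhibitor of mTORC1, and went the opposite way.
Ddit4 was at 81.8, 71.6 and 73.4 FPKM in Unstimulated CTL and at 36.9, 31.7 and 34.0 FPKM in TCR CTL, a difference of -1.14 (SE 0.095, limma adjusted p = 5.18e-08). Thus Sesn2 rose and Ddit4 fell under the same stimulus, with no overlap between groups for either.

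**Figure D2:**
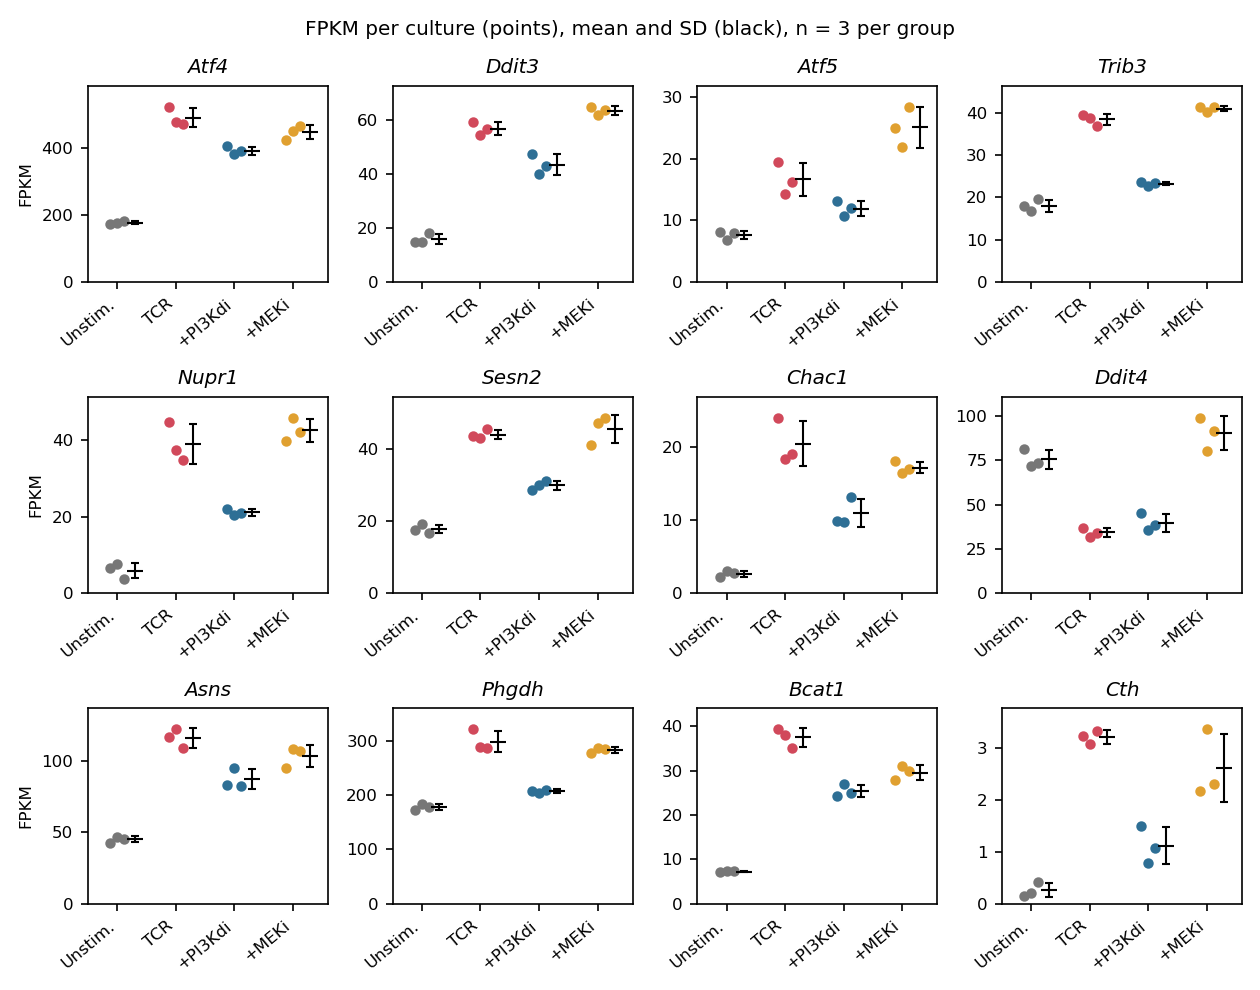
FPKM (vertical axis, from 0) of 12 members in each culture, with 1 coloured point per culture and the mean and SD in black, in Unstimulated, TCR, TCR+PI3Kdi (+PI3Kdi) and TCR+MEKi (+MEKi) CTL, n = 3 per group. Trib3 was between 22.8 and 23.6 FPKM in the 3 TCR+PI3Kdi cultures and between 40.4 and 41.5 FPKM in the 3 TCR+MEKi cultures.

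All 10 amino acid enzymes were higher in TCR CTL on the deposited scaling, against 33.6% of all mRNA. By more than 2-fold 4 of them were higher, against 8.87%, and the median difference was 0.97. The largest was that of Cth (chr3:157894248-157925077), which makes cysteine from cystathionine. Cth was scarce in Unstimulated CTL, at 0.15, 0.21 and 0.42 FPKM or about 4.6, 6.1 and 15.7 reads, and reached 3.24, 3.08 and 3.34 FPKM in TCR CTL (difference 3.27, SE 0.265, limma adjusted p = 3.97e-08). Its fold change rests on those few unstimulated reads, and adding 0.1 to the FPKM understates it.
Bcat1 (chr6:144993835-145076184), which transaminates branched-chain amino acids in the cytosol, was at 7.18, 7.25 and 7.27 FPKM before and 39.4, 37.9 and 35.1 FPKM after stimulation (difference 2.36, SE 0.065). Gpt2 (chr8:85492576-85527560), a mitochondrial alanine aminotransferase, rose from 2.43 ± 0.511 to 11.8 ± 0.11 FPKM (difference 2.25, SE 0.114). Asns (chr6:7675169-7693254), the asparagine synthetase, was already at 42.7, 46.9 and 45.5 FPKM and reached 117, 122 and 109 FPKM (difference 1.36, SE 0.071).

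The serine pathway was abundant at rest and rose by less than 2-fold. Phgdh, its committing step, went from 178.5 ± 5.13 to 299.1 ± 20.1 FPKM (difference 0.74, SE 0.053). Psat1 went from 113.8 ± 2.85 to 154.0 ± 4.51 FPKM (difference 0.44, SE 0.05), and Psph, the last step, from 19.1 ± 2.58 to 37.5 ± 2.76 FPKM (difference 0.98, SE 0.092). For Phgdh, 27.3% of its 100-base stretches also occur in Gm7901, so reads may have been divided between them. The enzymes on the way to proline behaved in a like way, Aldh18a1 rising by 0.89 (SE 0.05) and Pycr1 by 0.80 (SE 0.111), as did Got1, the cytosolic aspartate aminotransferase, by 0.96 (SE 0.052).

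Of the 20 synthetases, 17 were higher in TCR CTL and 2 were lower, against 33.6% and 34.9% of all mRNA. The remaining 1 did not pass the test, and the median difference was 0.65. Their summed FPKM went from 1288.9 ± 37.0 to 1949.0 ± 43.7. The FPKM total of all mRNA rose too, from 480159 ± 13795 to 639396 ± 24340, so part of this rise was shared by the whole table. Called higher were Cars, Nars, Yars and Iars, which charge tRNA with cysteine, asparagine, tyrosine and isoleucine. Cars (chr7:143557230-143600090) was at 17.5, 20.6 and 19.9 FPKM in Unstimulated CTL and at 56.7, 55.3 and 50.6 FPKM in TCR CTL, a difference of 1.49 (SE 0.068, limma adjusted p = 5.97e-11). Nars (chr18:64499647-64516652) went from 96.5, 99.3 and 106 FPKM to 219, 221 and 206 FPKM, a difference of 1.10 (SE 0.05). Yars rose by 1.07 (SE 0.062), and Iars, at 1.01 (SE 0.054), was the called member nearest to the 2-fold limit. Iars fell short of that limit without Unstimulated replicate 1, TCR replicate 2 or TCR replicate 3 (0.98 to 1.0), as Atf5 did without TCR replicate 1 (0.99).

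The enzymes for threonine (Tars), serine (Sars), alanine (Aars), glycine (Gars), phenylalanine (Farsa and Farsb), tryptophan (Wars), glutamate and proline (Eprs) and leucine (Lars) rose by 0.57 to 0.89. Gars had the highest FPKM of the 20 cytosolic synthetases in every group, going from 153.8 ± 7.77 to 261.7 ± 8.97 FPKM. Hars, Kars, Mars and Rars, for histidine, lysine, methionine and arginine, rose by 0.22 to 0.34 with groups that did not overlap, but lay below 0 once the cultures were set to an equal FPKM total. Dars, for aspartate, fell from 70.1, 64.5 and 71.1 FPKM to 54.3, 58.0 and 57.2 FPKM (difference -0.28, SE 0.06, limma adjusted p = 0.000804). Vars, for valine, fell from 72.7, 80.3 and 73.4 FPKM to 67.5, 61.1 and 63.7 FPKM (difference -0.24, SE 0.058, limma adjusted p = 0.00225). Qars, for glutamine, was at 56.3 ± 1.32 FPKM before and 55.7 ± 1.87 FPKM after, with groups that overlapped (difference -0.02, SE 0.048). On the deposited scaling the synthetases thus ranged from 2.8-fold higher for Cars to slightly lower for Dars and Vars in the same cultures.

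The size and, for some members, the direction of this response depended on the scaling. When every culture was set to an equal total of FPKM, here called the TPM scale, the median difference of all mRNA became -0.41, 8 members were called higher and 1 lower (5.87% and 20.6% of all mRNA), and the median over the 40 became 0.44. On that scale 30 members were past the test as higher and 7 as lower, against 15.3% and 60.9% of all mRNA. Hars, Kars, Mars and Rars changed sign (-0.17, -0.19, -0.16 and -0.08), while Atf4 stayed at 1.06, Ddit3 at 1.43, Cars at 1.07 and Ddit4 at -1.55. Dars and Vars were at -0.69 and -0.65. Qars passed the test as lower on the TPM scale (-0.43, limma adjusted p = 4.03e-06) and with quantile normalisation (-0.14, limma adjusted p = 0.021). Of the 10 amino acid enzymes, 9 were past the test as higher on the TPM scale, with a median of 0.56. Psat1, at 0.02, did not pass it. Of the 20 synthetases, 13 were past the test as higher and 6 as lower on that scale, with a median of 0.24. Among them only Cars was called there. With quantile normalisation 33 members were past the test as higher and 4 as lower, against 31.3% and 37% of all mRNA. Aars shares 12.8% of its stretches with Exosc6 on the same strand, and the other synthetases shared 5.3% or less with another gene.

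**Figure D3:**
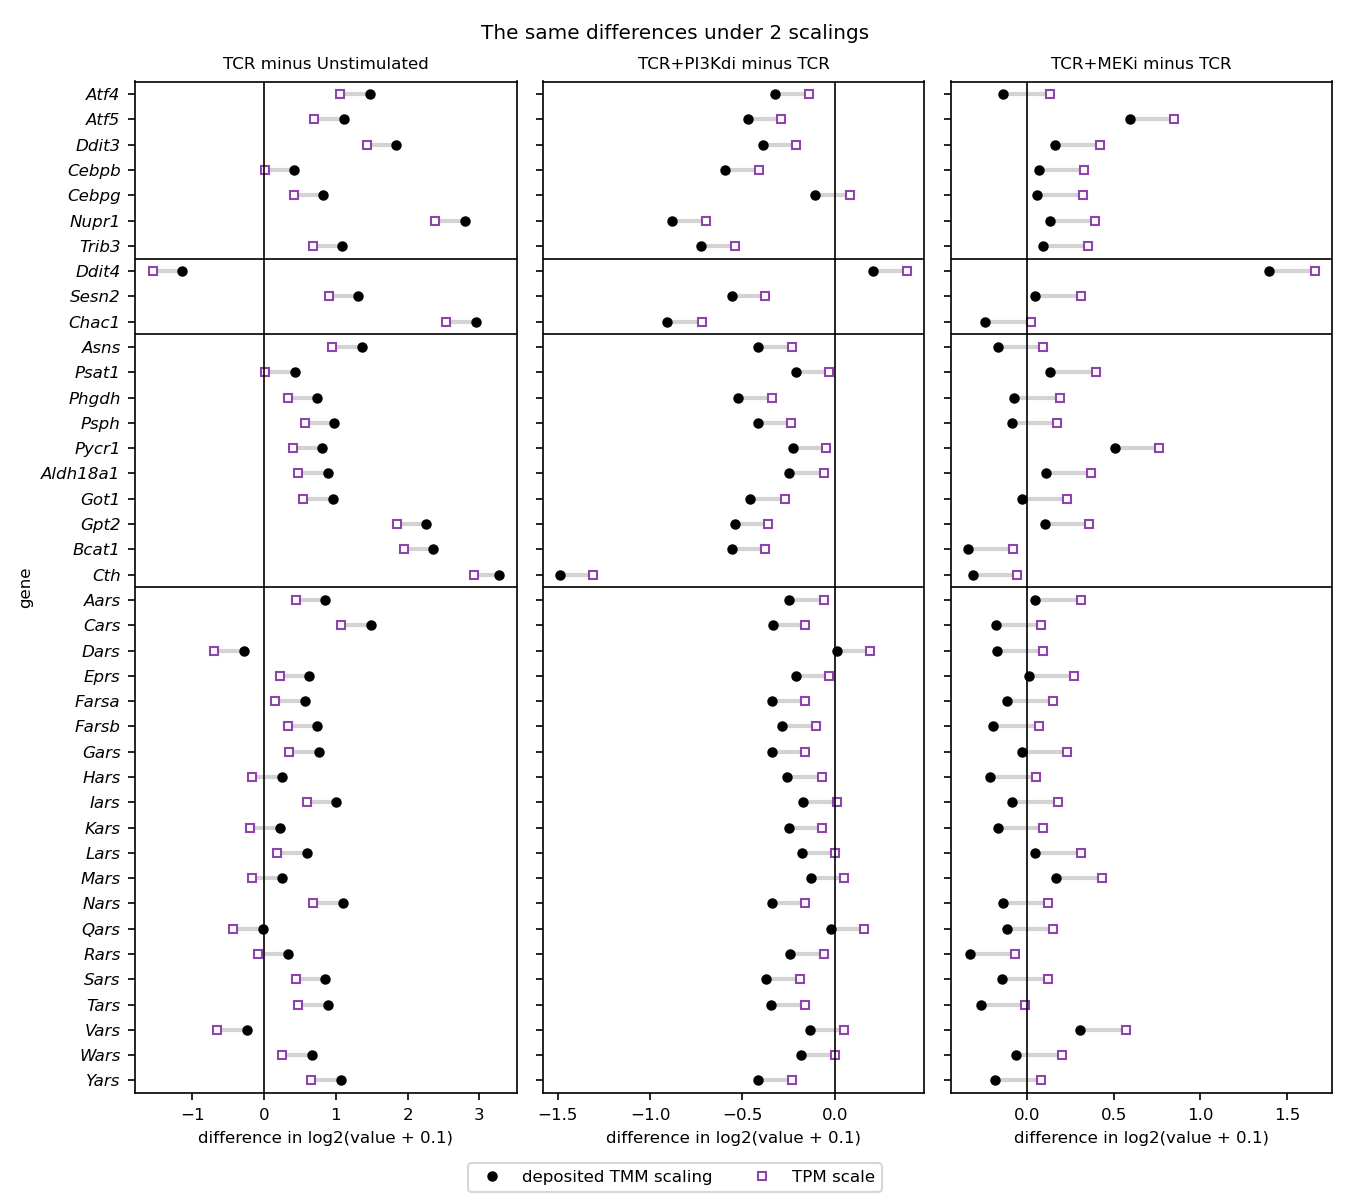
Differences in log2(value + 0.1) for the 40 mRNA with the deposited TMM scaling (black circles) and on the TPM scale (open squares), for TCR against Unstimulated, TCR+PI3Kdi against TCR and TCR+MEKi against TCR CTL. The TPM scale moved all mRNA by a median of -0.41, 0.19 and 0.26 in the 3 comparisons, and it put Hars, Kars, Mars and Rars below 0 in the left panel and Atf4 above 0 in the right panel.

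The comparison of TCR+PI3Kdi with TCR CTL asked how much of this program needs PI3K p110δ activity. The mRNA were lower with the inhibitor by modest amounts. At any size of change 32 of the 40 were past the test as lower and 0 as higher, where 12.8% of all mRNA were lower and 12.7% were higher. By more than 2-fold only Cth was called, where 1.38% of all mRNA were called lower and 0.499% higher. The median difference was -0.34 over the 40 and 0.02 over all mRNA. Of the 40, 36 had TCR+PI3Kdi cultures that all lay under every TCR culture, against 18.6% of all mRNA.

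Cth was at 3.24, 3.08 and 3.34 FPKM in TCR CTL and at 1.5, 0.78 and 1.08 FPKM in TCR+PI3Kdi CTL, a difference of -1.49 (SE 0.265, limma adjusted p = 0.000949). Without TCR+PI3Kdi replicate 3, Chac1 was called as well, at -1.05. Nupr1 was at 22.04, 20.3 and 20.9 FPKM with the inhibitor, a difference of -0.88 (SE 0.193), and Chac1 was at 9.81, 9.77 and 13.2 FPKM, a difference of -0.91 (SE 0.14). For each of these the 3 inhibitor cultures lay between the unstimulated and the TCR cultures. Trib3 was at 23.6, 22.8 and 23.5 FPKM, which is closer to the unstimulated than to the TCR level (difference from TCR -0.72, SE 0.061, limma adjusted p = 1.7e-06). Sesn2 was at 28.7, 30.04 and 31.1 FPKM (difference -0.56, SE 0.07).

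Among the remaining regulators, Atf4 was at 404, 381 and 391 FPKM with the inhibitor, below all TCR cultures (difference -0.32, SE 0.056, limma adjusted p = 0.000783). Atf5 (difference -0.47, SE 0.12) and Ddit3 (difference -0.39, SE 0.079) were lower as well. Cebpb was lower by a difference of -0.60 (SE 0.206, limma adjusted p = 0.0469) but its groups overlapped, and Cebpg, at -0.11 (SE 0.117), did not pass the test. Ddit4, the member that falls on stimulation, was at 45.0, 35.4 and 38.2 FPKM, which overlapped the TCR cultures (difference 0.20, SE 0.095, limma adjusted p = 0.129). With replicate number as a block, Ddit4 passed the test as higher, by less than 2-fold (adjusted p = 0.00952).

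Of the amino acid enzymes 9 of 10 were lower with IC87114, against 12.8% of all mRNA. Phgdh was at 209, 204 and 210 FPKM, against 322, 288 and 287 FPKM in TCR CTL (difference -0.52, SE 0.053, limma adjusted p = 8.65e-06). Bcat1 (-0.56, SE 0.065), Gpt2 (-0.54, SE 0.114), Got1 (-0.46, SE 0.052) and Asns (-0.42, SE 0.071) were lower by similar amounts. Pycr1 did not pass the test (-0.23, SE 0.111). Of the synthetases 15 of 20 were lower, against 12.8% of all mRNA, with a median difference of -0.25. Their summed level was 1623.1 ± 32.8 FPKM. The FPKM total of all mRNA was lower too, at 563394 ± 19579 with the inhibitor and 639396 ± 24340 in TCR CTL. Yars had the largest difference among them (-0.42, SE 0.062), followed by Sars (-0.37, SE 0.06). Dars, Lars, Mars, Qars and Vars did not pass the test, and of these Dars and Qars had inhibitor cultures that overlapped the TCR cultures. With replicate number as a block, Lars passed the test as lower (-0.18, limma adjusted p = 0.0468).

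On the TPM scale, where the median of all mRNA moved to 0.19, 20 members were past the test as lower and 3 as higher (5.04% and 34.6% of all mRNA), the 3 being Ddit4, Dars and Qars. Cebpg, Iars, Lars, Mars, Qars and Vars changed sign on that scale, with Qars at 0.16, and for the synthetases the count of lower mRNA fell from 15 to 6. For the amino acid enzymes that count fell from 9 to 7, as Psat1 and Aldh18a1 did not pass the test there. With quantile normalisation 25 members were lower and 0 higher (10.3% and 11.8% of all mRNA). Cth, Chac1, Nupr1, Trib3, Sesn2, Phgdh, Bcat1, Atf4, Atf5 and Ddit3 were past the test as lower under each of the 3 scalings. So were the enzymes Asns, Psph, Got1 and Gpt2 and the synthetases Farsa, Gars, Nars, Sars, Tars and Yars.

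**Figure D4:**
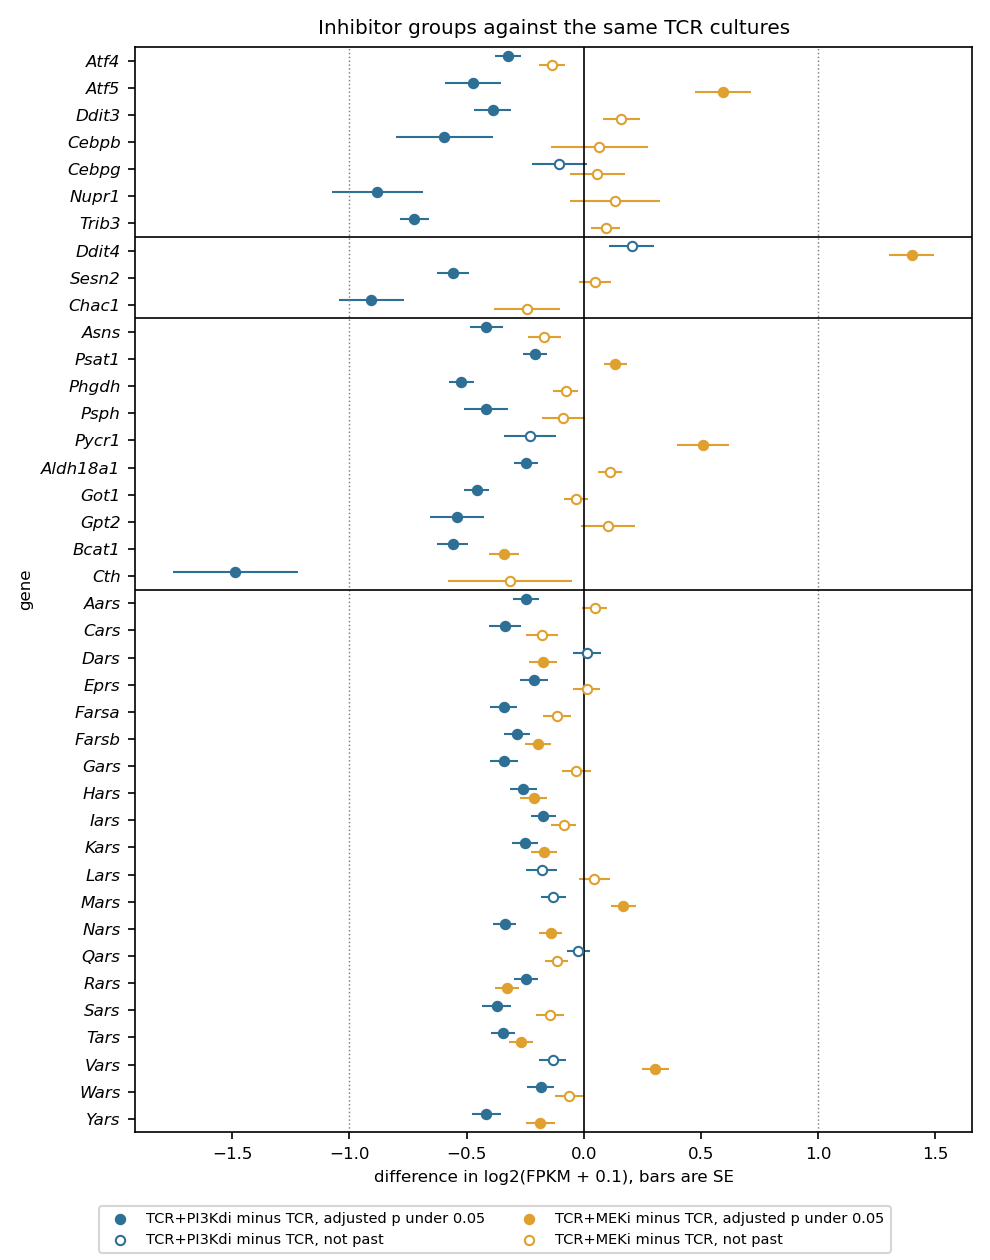
Differences in log2(FPKM + 0.1) between each inhibitor group and the same 3 TCR cultures for the 40 mRNA, with SE bars, where filled circles had an adjusted p under 0.05 and dotted lines mark a 2-fold change. With PI3Kdi 32 circles are filled, all left of 0, and with MEKi 15 are filled, 6 right and 9 left of 0, on the deposited scaling. On the TPM scale 3 PI3Kdi differences were past the test right of 0 and no MEKi difference was past it left of 0.

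The comparison of TCR+MEKi with TCR CTL asked the same question of MEK and ERK signalling. On the deposited scaling most of these mRNA did not pass the test. At any size of change 6 of the 40 mRNA were past the test as higher, 9 as lower and 25 did not pass it, where 18.9% of all mRNA were higher and 18.2% were lower. With replicate number as a block, Asns (-0.17, limma adjusted p = 0.0304) and Cars (-0.18, limma adjusted p = 0.0476) passed it as lower too. The median difference was -0.07 over the 40 and 0.01 over all mRNA. Without TCR+MEKi replicate 1, the culture of lowest estimated depth, 9 in place of 15 were past the test. The called member was Ddit4, which was higher, where 0.98% of all mRNA were called higher and 2.51% lower. Ddit4 was at 99.1, 80.3 and 92.0 FPKM in TCR+MEKi CTL, above every TCR culture (difference 1.40, SE 0.095, limma adjusted p = 7.36e-08). Its lowest TCR+MEKi culture was under the highest unstimulated one, with an unstimulated mean of 75.6 ± 5.41 FPKM. Against Unstimulated CTL it was past the test as higher by less than 2-fold (difference 0.26, SE 0.095, limma adjusted p = 0.0301). On the TPM scale that difference was 0.11 and did not pass the test.

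Atf5 was at 24.95, 21.8 and 28.4 FPKM with the MEK inhibitor, above TCR cultures at 19.4, 14.3 and 16.1 FPKM (difference 0.59, SE 0.12, limma adjusted p = 0.00149). Pycr1 was higher by 0.51 (SE 0.111), Vars by 0.31 (SE 0.058), Mars by 0.17 (SE 0.053) and Psat1 by 0.14 (SE 0.05). For Vars the TCR+MEKi cultures, at 77.0, 82.4 and 78.1 FPKM, were at about the unstimulated level, so that its fall on stimulation was not seen with the inhibitor. Bcat1 was lower, at 27.8, 31.0 and 29.8 FPKM (difference -0.34, SE 0.065), and so were Rars (-0.33, SE 0.052), Tars (-0.27, SE 0.051), Hars, Farsb, Yars, Dars, Kars and Nars (-0.21 to -0.14), of which the last 6 changed sign on the TPM scale.
Of the remaining regulators, Atf4 was at 424, 450 and 466 FPKM (difference -0.14, SE 0.056, limma adjusted p = 0.0717), Ddit3 at 64.8, 61.7 and 63.8 FPKM (difference 0.16, SE 0.079) and Trib3 at 41.4, 40.4 and 41.5 FPKM (difference 0.09, SE 0.061). None of the 3 passed the test on the deposited scaling. On the TPM scale, where 50.2% of all mRNA were higher, all 3 were past it as higher (0.13, 0.42 and 0.35). Ddit3 was also past it as higher with quantile normalisation (0.23, limma adjusted p = 0.0278).

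These small differences moved more on the TPM scale than those of the PI3K inhibitor, but not with quantile normalisation. With the latter the median over the 40 went from -0.07 to 0.04 here, and from -0.34 to -0.2 for the PI3K inhibitor. On the TPM scale, where the median of all mRNA was 0.26, 23 members were past the test as higher and 0 as lower, against 50.2% and 5.88% of all mRNA, and Atf4 changed sign to 0.13. With quantile normalisation 10 were higher and 3 lower (18.8% and 15.5% of all mRNA). Ddit4, Atf5, Pycr1, Psat1, Mars and Vars were past the test as higher under each of the 3 scalings.

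TCR+MEKi was then compared directly with TCR+PI3Kdi CTL, which tests the difference between the inhibitor effects, since both are taken against the same TCR cultures. Of the 40 mRNA 4 were called higher with the MEK inhibitor and 0 lower, where 1.39% of all mRNA were called higher and 1.71% lower. At any size of change 29 were past the test as higher and 1, Dars, as lower (14.5% and 14.4% of all mRNA), with a median of 0.27 over the 40 and -0.01 over all. The called mRNA were Ddit4 (1.20, SE 0.095), Cth (1.17, SE 0.265), Atf5 (1.07, SE 0.12) and Nupr1 (1.01, SE 0.193). The last 3 lay close to the 2-fold limit. With a pseudocount of 1, or without TCR+MEKi replicate 2, Ddit4 and Atf5 were called, and without TCR+PI3Kdi replicate 2 only Ddit4 was called. Without TCR+MEKi replicate 3, Atf5 was under 2-fold (0.97).

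Among members that were not called, Trib3 was 0.82 higher with the MEK inhibitor (SE 0.061, limma adjusted p = 2.16e-07), followed by Pycr1 (0.74, SE 0.111), Chac1 (0.66, SE 0.14), Cebpb (0.66, SE 0.206), Gpt2 (0.64, SE 0.114), Sesn2 (0.61, SE 0.07) and Ddit3 (0.55, SE 0.079). All 10 amino acid enzymes, 6 of 7 transcription factors and regulators (all but Cebpg) and all 3 stress effectors were past the test as higher. Of the 20 synthetases 10 were higher and 1 was lower, against 14.5% and 14.4% of all mRNA, and 9 did not pass the test. Their median was 0.18, with Vars (0.44, SE 0.058) at the top. On the TPM scale 33 members were higher and 0 lower, against 21.1% and 9.24% of all mRNA, and with quantile normalisation 29 were higher and 1 lower, against 15.4% and 14.8%.

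The 15 mRNA called higher in TCR CTL were also described by how much of their rise in mean FPKM over Unstimulated CTL was present with each inhibitor. With PI3Kdi this share had a median of 59.1%, from 25.6% for Trib3 and 29.1% for Cth to 68.5% for Atf4 and 77.6% for Iars. With MEKi the median was 85.9%, from 73.8% for Bcat1 to 193.7% for Atf5, and it was over 100% for Ddit3 (116.4%), Trib3 (112.6%), Nupr1 (110.9%), Gpt2 (109.4%) and Sesn2 (106.1%). Over all 978 mRNA called higher in TCR CTL the medians were 66.6% with PI3Kdi (quartiles 48.2% and 88.2%) and 61.8% with MEKi (quartiles 34.2% and 89.9%). The medians of the 15 lie within these quartiles. These shares use the same unstimulated and TCR cultures for both inhibitors and carry no test. The mRNA were chosen for being high in those TCR cultures, so the shares partly reflect that choice.

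Against Unstimulated CTL, 8 members were called higher and 0 lower in TCR+PI3Kdi CTL (7.16% and 7.43% of all mRNA), and 14 were called higher and 0 lower in TCR+MEKi CTL (6.95% and 6.46% of all mRNA).

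Other genes of the pathway were read from lists. Of 27 further ATF4 targets, 23 had a row, 13 of these were called higher and 2 lower in TCR CTL, against 8.87% and 11.1% of all mRNA, with a median difference of 1.14. The TPM scale gave 7 called higher and 3 lower, against 5.87% and 20.6%, with a median of 0.73. The 2 lower on the deposited scaling were Jdp2 (-1.76, SE 0.11) and Txnip (-1.24, SE 0.056), which are named because of their values. Those with the largest changes were the repressor Atf3, which went from 1.92 ± 0.111 to 54.8 ± 1.57 FPKM (difference 4.76, SE 0.065), Ndrg1 (3.76, SE 0.097), the neutral amino acid transporter Slc1a4 (3.42, SE 0.068), the glycine transporter Slc6a9 (2.78, SE 0.135), the cystine transporter Slc7a11 (2.22, SE 0.179) and the growth factor Vegfa (1.78, SE 0.089). Slc7a11 was scarce, at 0.153 ± 0.031 FPKM in Unstimulated and 1.07 ± 0.081 FPKM in TCR CTL, so its difference depends on the added 0.1. With the PI3K inhibitor 16 of the 23 were past the test as lower and 1, Txnip, as higher, against 12.8% and 12.7% of all mRNA, and on the TPM scale 10 were lower and 1 higher, against 5.04% and 34.6%. Slc6a9 was at 12.7 ± 0.93 FPKM in TCR CTL, 7.12 ± 1.33 FPKM with PI3Kdi and 15.8 ± 1.44 FPKM with MEKi. Ndrg1 showed the opposite order, at 228, 219 and 206 FPKM in TCR CTL, 172.2 ± 4.0 FPKM with PI3Kdi and 104.6 ± 5.49 FPKM with MEKi. It was the 1 mRNA of the list called lower with the MEK inhibitor (difference -1.06, SE 0.097, limma adjusted p = 1.4e-06), against 2.51% of all mRNA. It was lower by less than 2-fold on the TPM scale (-0.80) and with quantile normalisation (-0.89), so that it was no longer called. At any size 6 of the 23 were past the test as higher with the MEK inhibitor and 3 as lower, against 18.9% and 18.2% of all mRNA. The TPM scale gave 16 higher and 1 lower, against 50.2% and 5.88%.

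Of the 17 mitochondrial tRNA synthetases 0 were called by limma in TCR CTL, where 8.87% of all mRNA were called higher and 11.1% lower. The median difference was 0.11 (-0.30 on the TPM scale). At any size 5 were past the test as higher (Yars2, Mars2, Nars2, Wars2 and Hars2) and 5 as lower, against 33.6% and 34.9% of all mRNA. The 5 that were higher are named because of their values. On the TPM scale only Yars2 of them was still past the test, while Hars2 and Wars2 changed sign. All 4 scaffold and tRNA export genes were past the test as higher in TCR CTL on the deposited scaling, against 33.6% of all mRNA. Aimp1, named because of its value, changed sign on the TPM scale. Of the 4, 2 were called higher, against 8.87% of all mRNA. These were Eef1e1 (1.16, SE 0.069), a subunit of the multi-synthetase complex, and Xpot (1.04, SE 0.06), which exports tRNA from the nucleus. Both were under 2-fold on the TPM scale (0.75 and 0.63) and with quantile normalisation (0.97 and 0.95). Of 10 genes for eIF2α kinases and regulators of its dephosphorylation, 4 were past the test as higher and 2 as lower, against 33.6% and 34.9% of all mRNA. On the TPM scale 1 was higher and 6 were lower, against 15.3% and 60.9%. Of the 10, 1 was called higher, Ppp1r15a, against 8.87% of all mRNA. It encodes GADD34, which helps reverse eIF2α phosphorylation, and went from 9.80 ± 0.524 to 42.7 ± 0.858 FPKM (difference 2.11, SE 0.065, limma adjusted p = 6.6e-13). It was at 30.9 ± 1.92 FPKM with PI3Kdi and 36.6 ± 2.03 FPKM with MEKi.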

How the data were processed

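Messenger RNA of 12 CTL cultures was read from 1 table of FPKM that the authors deposited for 11022 genes. According to the methods and the submitters' processing notes, the authors aligned reads to mm10 with STAR 2.4.2a, counted them per gene with Subread 1.5.0, removed genes with low counts, scaled counts by TMM in edgeR and divided by exon length, without pooling replicates. Libraries came from a kit that keeps strand, but whether counting used the strand is not given in the sources used here. Value columns that could not be assigned to a sample numbered 0. The members and lists were chosen with earlier results of these data known.

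With log2(FPKM + 0.1) of all genes in the 12 samples as the response, the 4 group means were estimated together with limma 3.58.1 in R 4.3.3 (eBayes with an intensity trend, Benjamini-Hochberg adjustment), for 6 comparisons of groups, and was tested on simulated data. The pseudocount of 0.1 understates changes of low genes. All 40 members are reported. From the pathway lists a gene is named when called in TCR against Unstimulated or in either inhibitor group against TCR, with at most the 6 largest changes per list, and genes outside this rule are named where the text says that their values chose them. Depth was estimated from the spacing of low FPKM values, which did not resolve into whole reads, so no count test was run, and such estimates cover counting error only. Gene positions came from GENCODE on GRCm38 and promoters from RefSeq (GRCm38.p6).

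The cultures derive from 3 mice, and whether equal replicate numbers mark the same mouse is not stated. Deviations from group means over 9899 genes correlated between same-numbered cultures at 0.451, 0.376 and 0.239 for TCR+PI3Kdi with TCR. The correlations were 0.122 to 0.182 for TCR+MEKi with TCR and 0.137 to 0.149 between the inhibitor groups. They were 0.105, 0.153 and 0.004 for TCR with Unstimulated. Only same-numbered cultures were correlated, with no different-numbered pairs beside them. These values therefore cannot tell paired from unpaired groups, and pairing remains possible. The main fit had no replicate term, so its SE and adjusted p are those of unpaired groups. A replicate block was run as an alternative only. Alternatives were pseudocounts of 1 and 0.01, a mean FPKM of at least 1, the TPM scale, quantile normalisation, a replicate block, the compared groups alone, no trend, and leaving out each replicate. A comparison of the leucine zipper proteins was not run. Python 3.11.15, NumPy 2.4.6, pandas 2.3.3 and Matplotlib 3.10.9 were used.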

Additional observations from a re-analysis of the deposited data

How the results depend on the processing

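The counts of members called in TCR against Unstimulated CTL (16) fell to 9 on the TPM scale and ranged from 15 to 17 when 1 replicate was left out. The count was 1 to 2 for TCR+PI3Kdi against TCR (1), the second being Chac1 without TCR+PI3Kdi replicate 3, and 1 to 4 for TCR+MEKi against TCR+PI3Kdi (4), where a pseudocount of 1 gave 2. Members past the test at any size in TCR+MEKi against TCR (15) numbered 23 on the TPM scale and 9 to 13 when a replicate was left out, the 9 being without TCR+MEKi replicate 1, the culture of lowest estimated depth. The replicate block gave 16, 1, 1 and 4 called members in the 4 main comparisons and changed no call of a member past 2-fold. At any size it put Ddit4 past the test as higher and Lars as lower in TCR+PI3Kdi against TCR, and Asns and Cars as lower in TCR+MEKi against TCR. Calls were lost by Iars with a pseudocount of 1 (0.99), by Iars, Nars and Yars with quantile normalisation (0.87, 0.9 and 0.97), by Atf5, Trib3, Sesn2, Asns, Iars, Nars and Yars on the TPM scale (0.6 to 0.95), and by Atf5 in TCR+MEKi against TCR+PI3Kdi without TCR+PI3Kdi replicate 2 (0.99) or TCR+MEKi replicate 3 (0.97), while Psph (1.04 and 1.08) gained one without TCR or Unstimulated replicate 3. Other counts stayed within 1.5 times under the alternatives. On the TPM scale the sign changed in TCR against Unstimulated for Hars (-0.17), Kars (-0.19), Mars (-0.16) and Rars (-0.08), and in TCR+PI3Kdi against TCR for Cebpg (0.08), Iars (0.01), Lars (0.0), Mars (0.05), Qars (0.16) and Vars (0.05). In TCR+MEKi against TCR it changed for Atf4 (0.13), Chac1 (0.02), Asns (0.09), Phgdh (0.19), Psph (0.17), Got1 (0.23), Cars (0.08), Dars (0.09), Farsa (0.15), Farsb (0.07), Gars (0.23), Hars (0.05), Iars (0.18), Kars (0.09), Nars (0.12), Qars (0.15), Sars (0.12), Wars (0.2) and Yars (0.08). Quantile normalisation changed the sign in TCR+MEKi against TCR for Atf4 (0.06), Phgdh (0.07), Got1 (0.03), Gars (0.15), Iars (0.05) and Wars (0.04), and in TCR+PI3Kdi against TCR for Qars (0.05). Leaving out a replicate moved Cebpb (-0.17 to 0.29), Cebpg (-0.06 to 0.17), Eprs (-0.05 to 0.07) and Gars (-0.06 to 0.0) across 0 in TCR+MEKi against TCR, Dars (-0.02 to 0.03) in TCR+PI3Kdi against TCR and Qars (-0.03 to 0.01) in TCR against Unstimulated. The TPM shifts follow from the rescaling itself, which moves all mRNA of a culture by the same factor. Which scaling is closer to mRNA per cell was not tested, and no measure of RNA per cell was analysed here. With 3 cultures per group and under 16 estimated reads of Cth in each unstimulated culture, its fold change is the least precise.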
